A study of Mus musculus with 33 samples.

Results

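The bromodomain inhibitor JQ1 was given to mice in 2 separate experiments, and the question here is whether hippocampal area CA1 of amyloid-bearing APP animals and of young wild-type mice answered the compound in the same way. For each gene the quantity tested was a difference of changes, JQ1 minus vehicle in APP animals less JQ1 minus vehicle in young animals, on the log2 scale. It rests on 28 of the 33 samples of the series. The APP experiment holds 6 JQ1 and 6 vehicle samples from APP/PS1-21 mice on a C57B/6 background, aged 8 to 10 months and injected i.p. for 10 days. These animals carry human transgenes, mutant APP among them, under the neuronal Thy1 promoter. The young experiment holds 8 JQ1 and 8 vehicle samples from C57B/6JRj mice aged 3 months and injected for 13 days. In both, JQ1 was dosed at 50 mg/kg, the vehicle contained 10% DMSO, and CA1 was dissected from mice that had gone through water-maze training. Genotype, age, days of injection, sex and the processing of the reads all changed together between the experiments, and their effects on the difference cannot be told apart. No JQ1-treated wild-type mice of the APP animals' age were among the samples.

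BET proteins, Brd2 and Brd3 among them, read acetylated histone tails through paired bromodomains, and JQ1 fills the acetyl-lysine pocket of those domains. The family acts with the kinase complex P-TEFb on paused RNA polymerase II, and BET inhibition is known for lowering genes whose transcription depends on pause release. Hexim1, an inhibitor of P-TEFb, is widely used as a marker that rises after BET inhibition.

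The genotype labels were not checked by a gene, since mouse App stood at 190 ± 15.2 RPKM in APP and 440 ± 23.5 FPKM in young vehicle samples (mean ± SD, n = 6 and 8) on separate scales. The drug labels were not checked either, and Hexim1 did not pass the test in APP animals (-0.14 ± 0.08). Xist, the RNA of the inactive X chromosome, lay between 27.9 and 71.1 RPKM in the 12 APP samples and did not exceed 0.228 FPKM in the 16 young samples, while the Y-linked Eif2s3y lay between 39.9 and 72.5 FPKM in the young samples and did not exceed 0.473 RPKM in the APP samples, so that the APP samples were female and the young samples male. The CA1 marker Fibcd1 was present in all 28 samples (17.8 to 53.0). Reads counted on genes ranged from 14605459 to 25339482 per APP sample. The young files hold no read counts, so their depth is unknown. The median within-group SD per gene on the log2 scale was 0.211 in the APP and 0.151 in the young experiment. Tissue was dissected in bulk, so fewer cells of a type and less RNA per cell cannot be told apart.

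Of 11478 genes measured in both experiments, 223 (1.94%) differed in their response to JQ1 at an adjusted p of 0.05 (limma with Benjamini-Hochberg adjustment over all genes tested). In 78 (0.68%) the difference was positive and in 145 (1.26%) negative, which below is written as higher or lower in APP. In APP animals alone 876 genes (7.63%) passed the test, 428 rising (3.73%) and 448 falling (3.9%), but this count depends on the spread that the experiments share in 1 fit. It was 65 when each experiment was fitted separately and 111 when each experiment had its own weight. In young animals no gene passed (0.0%), with 305 genes at an unadjusted p under 0.05 and an adjusted p of 1 throughout. A separate fit of the young samples gave 0 and 531. Among the 223 genes, the change in APP animals was the larger of the paired changes in 221 (all but Plcxd1 and Idh1). These genes were selected on a difference that holds the APP change. The APP experiment also had fewer samples and a larger within-group SD. The count is thus no separate evidence of a stronger response in APP animals. Across the 11478 genes the changes in the 2 experiments had a Pearson's r of -0.039 and the same sign in 49.0% of genes, a description over genes that share libraries. The experiments share no control sample.

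**Figure D1:**
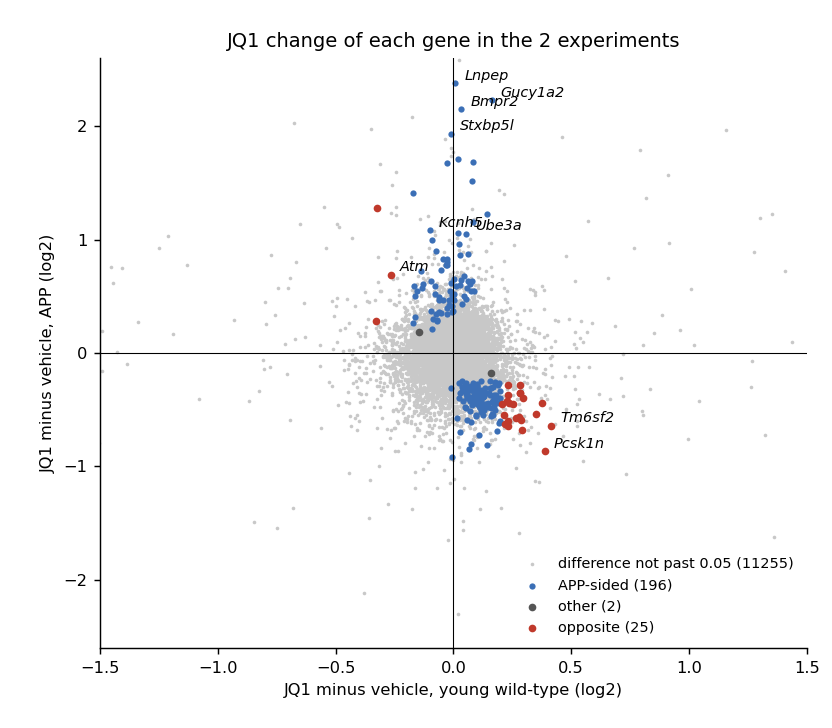
Each point is a gene, with its log2 change on JQ1 in young animals on the x axis and in APP animals on the y axis. Coloured points are genes whose difference passed the test, and 58 genes lie outside the axes. The points past the test spread far along the APP axis and stay close to 0 on the young axis.

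By the size of the 2 changes, with 0.2 on the log2 scale as the limit, 196 of the 223 genes were one-sided towards APP (74 higher, 122 lower), 25 had changes of opposite sign past the limit in both experiments (3 higher, 22 lower), 2 were in neither class (Paics and Map3k12) and none was one-sided towards young animals. No young change in any class passed the test on its own, so "opposite" describes the signs of the estimates, and the test is of the difference. Of the 25 opposite genes, 20 passed the test in APP animals and 16 had an unadjusted p under 0.05 in young animals, the smallest being 0.0013 (Ccnd3, encoding cyclin D3). JQ1 and vehicle samples of APP animals did not overlap in 41 of the 78 higher and 72 of the 145 lower genes. Over all genes tested, JQ1 lay wholly above vehicle in 0.854% and wholly below in 1.16%. The 223 genes were selected on a difference that holds the APP change, so frequent separation of their APP groups follows from that selection. The young groups did not overlap in 1 of the 223.

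The direction of the difference followed base composition. In APP animals the change on JQ1 correlated with the GC content of a gene's exons (r = -0.524 across 11478 genes), and in young animals r was 0.036. In the 1148 genes with the lowest GC content, the median change was 0.20 in APP and 0.03 in young animals, and all 39 genes past the test were higher. In the 1148 genes with the highest GC content, the medians were -0.25 and 0.06, and all 93 genes past the test were lower. Median GC content was 41.5% in the higher genes, 59.0% in the lower genes and 49.8% in all genes tested. In single samples, levels centred on their experiment correlated with GC content at -0.386 to 0.007 in APP JQ1, at 0.110 to 0.376 in APP vehicle and at -0.230 to 0.147 in the young samples. After correction of every sample for GC content and gene length, 26 genes differed (18 higher, 8 lower), of which 24 were among the 223. Of the original genes, 78 of 78 higher and 143 of 145 lower kept the sign. The part of base composition in the differences was not tested beyond this correction.

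**Figure D2:**
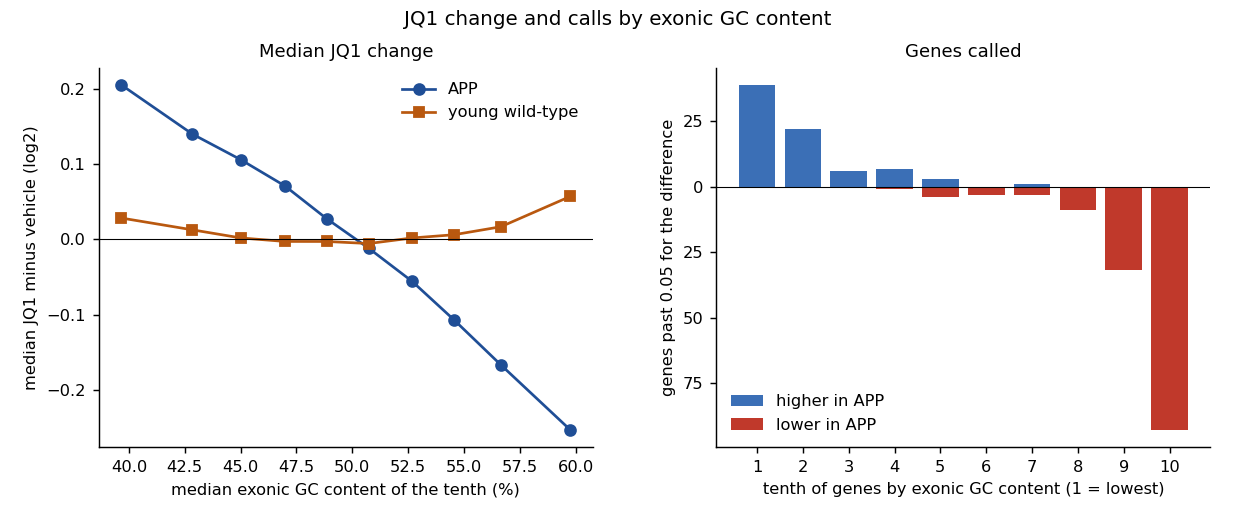
Genes were split by exonic GC content into 10 groups of near-equal size. The left panel plots the median log2 change on JQ1 against the median GC content (%) of each group, which falls from 0.20 to -0.25 in APP animals and stays between -0.01 and 0.06 in young animals, and the right panel the number of genes past the test, with higher above and lower below the line at 0, from 39 higher in the lowest to 93 lower in the highest group.

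The genes described first had large positive differences, with a rise in APP animals and young changes near 0. Lnpep (ENSMUSG00000023845, chr17:17521410-17625050 on the minus strand of mm10) encodes a membrane aminopeptidase that cleaves oxytocin and vasopressin. Its level in APP animals was 1.65, 2.12 and 2.90 RPKM on JQ1 (lowest, median and highest of 6) and 0.175, 0.312 and 0.632 on vehicle. In young animals it was 15.0, 17.3 and 18.9 FPKM on JQ1 and 15.7, 16.6 and 19.6 on vehicle. All APP JQ1 samples lay above all APP vehicle samples, whereas the young groups covered the same range. Lnpep rose 5.21-fold in APP animals (2.38 ± 0.14, log2 change ± SE), the young change was 0.01 ± 0.12, and the difference was 2.37 ± 0.19 (adjusted p = 3.59e-09).

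Gucy1a2 (ENSMUSG00000041624, chr9:3532778-3894736, plus strand), encoding a subunit of the nitric oxide receptor guanylate cyclase, behaved alike. Its APP level was 1.37, 1.87 and 2.05 RPKM on JQ1 and 0.112, 0.331 and 0.390 on vehicle. Its young level was 8.23, 9.67 and 11.4 FPKM on JQ1 and 7.19, 7.87 and 11.3 on vehicle. The APP groups were separate and the young groups overlapped, and the difference was 2.07 ± 0.21 (adjusted p = 3.38e-07).

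The promoters of these risers are shown beside those of Pcsk1n and Rtn4r, opposite genes described further on, so that both directions of the difference are represented. Each runs 5′ to 3′ from 250 bases before to 50 after the RefSeq transcription start on GRCm38.p6, with CG pairs in capitals. That start lies 561 bases from the GENCODE start for Lnpep and 429 for Gucy1a2, and at it for Pcsk1n and Rtn4r. The Gucy1a2 window thus lies wholly upstream of the gene coordinates given above.
Lnpep, chr17:17624440-17624739, minus strand: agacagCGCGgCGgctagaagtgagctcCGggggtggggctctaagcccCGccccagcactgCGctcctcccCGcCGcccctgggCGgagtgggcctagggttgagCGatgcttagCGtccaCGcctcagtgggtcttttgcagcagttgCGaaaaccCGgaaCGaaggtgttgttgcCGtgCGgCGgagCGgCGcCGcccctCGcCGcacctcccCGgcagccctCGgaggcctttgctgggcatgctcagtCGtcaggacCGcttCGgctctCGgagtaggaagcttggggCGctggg
Gucy1a2, chr9:3532099-3532398, plus strand: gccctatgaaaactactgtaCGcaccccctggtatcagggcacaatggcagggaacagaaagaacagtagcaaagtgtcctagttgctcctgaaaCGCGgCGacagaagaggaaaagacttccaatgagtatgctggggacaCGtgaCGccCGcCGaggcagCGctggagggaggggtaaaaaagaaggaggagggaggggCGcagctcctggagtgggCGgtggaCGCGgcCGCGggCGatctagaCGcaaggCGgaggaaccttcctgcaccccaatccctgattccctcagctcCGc
Pcsk1n, chrX:7919572-7919871, plus strand: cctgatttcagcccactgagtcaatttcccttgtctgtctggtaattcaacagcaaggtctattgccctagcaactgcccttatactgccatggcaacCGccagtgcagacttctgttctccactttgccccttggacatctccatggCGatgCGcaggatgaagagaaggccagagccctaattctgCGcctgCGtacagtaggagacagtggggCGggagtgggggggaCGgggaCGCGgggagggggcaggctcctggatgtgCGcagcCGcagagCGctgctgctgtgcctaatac
Rtn4r, chr16:18127392-18127691, plus strand: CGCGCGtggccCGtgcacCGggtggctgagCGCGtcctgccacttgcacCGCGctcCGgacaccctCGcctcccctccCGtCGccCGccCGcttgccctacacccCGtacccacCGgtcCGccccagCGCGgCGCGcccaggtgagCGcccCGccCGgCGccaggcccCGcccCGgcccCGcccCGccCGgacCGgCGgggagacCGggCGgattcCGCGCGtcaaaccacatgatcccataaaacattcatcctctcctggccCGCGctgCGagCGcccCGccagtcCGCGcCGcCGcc

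The 4 windows held 30, 19, 12 and 47 CG pairs in that order. All of them contained GGGCGG on either strand, none contained TATAAA, and the Gucy1a2 window alone contained CACGTG, the E-box letters. Of the 11478 genes, 8741 had a promoter in the table. The median number of CG pairs was 23 in 62 higher genes, 25 in 112 lower genes and 21 in all 8741. GGGCGG was in 67.7%, 79.5% and 65.9% of them, TATAAA in 6.45%, 1.79% and 6.62%, and CACGTG in 8.06%, 8.04% and 10.3%, each counted on both strands.

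Bmpr2 (ENSMUSG00000067336, chr1:59763400-59879014), the type II receptor for bone morphogenetic proteins, was at 1.01, 1.75 and 2.10 RPKM on JQ1 and 0.124, 0.304 and 0.747 on vehicle in APP animals. Its young levels were 19.5, 21.9 and 23.7 FPKM on JQ1 and 18.3, 21.9 and 24.4 on vehicle. It rose 4.44-fold in APP animals without overlap of the groups, and the difference was 2.12 ± 0.28 (adjusted p = 0.000105). Bmpr1a, a type I receptor of the same pathway, was also higher in APP (0.42 ± 0.10, adjusted p = 0.0315). Its APP groups overlapped, at 8.58 to 10.8 RPKM on JQ1 and 6.13 to 9.05 on vehicle. Bmpr1a was picked after its values were seen.

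Stxbp5l, encoding tomosyn-2, which restrains vesicle fusion by binding SNARE proteins, was at 3.89, 5.12 and 5.93 RPKM on JQ1 and 0.675, 1.20 and 2.48 on vehicle in APP animals. In young animals it was at 19.5, 24.6 and 28.6 FPKM on JQ1 and 19.5, 25.9 and 31.97 on vehicle. The difference was 1.94 ± 0.27 (adjusted p = 0.000169). Sytl5, a synaptotagmin-like protein that binds Rab27, was at 0.556 to 1.09 RPKM on JQ1 and 0.103 to 0.325 on vehicle in APP animals, and at 0.857 to 1.32 FPKM against 1.10 to 1.52 in young animals. Its difference was 1.58 ± 0.22 (adjusted p = 0.000133). In both genes the APP groups were separate and the young groups were not. No APP vehicle sample of Sytl5 reached the filter level of 0.5 RPKM, so it too was tested only through its JQ1 samples.

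Lcor, a ligand-dependent corepressor of nuclear receptors, was at 0.542, 0.953 and 1.23 RPKM on JQ1 and 0.0348, 0.199 and 0.505 on vehicle in APP animals, and at 2.82 to 3.90 FPKM against 2.86 to 3.79 in young animals. Its difference was 1.69 ± 0.30 (adjusted p = 0.00396). Fam135b (1.71 ± 0.24, adjusted p = 0.000195) and Lmbrd2 (1.60 ± 0.41, adjusted p = 0.0388) had separate APP groups as well. Kcnh5, an ether-à-go-go potassium channel, ranged from 0.669 to 1.68 RPKM on JQ1 and from 0.339 to 0.677 on vehicle in APP animals, so that the ranges overlapped slightly, and its difference was 1.18 ± 0.24 (adjusted p = 0.0102). The adhesion molecule Ncam2 (1.76 to 3.46 against 0.779 to 2.14 RPKM) overlapped too, with a difference of 1.09 ± 0.23 (adjusted p = 0.0157). After the GC correction Lmbrd2 (1.34, limma adjusted p = 0.176) and Ncam2 (0.82, 0.111) did not pass. Lnpep, Gucy1a2, Bmpr2, Stxbp5l, Sytl5, Lcor, Fam135b and Kcnh5 still did. Lmbrd2 passed in 15 of the 28 fits with 1 sample left out.

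**Figure D3:**
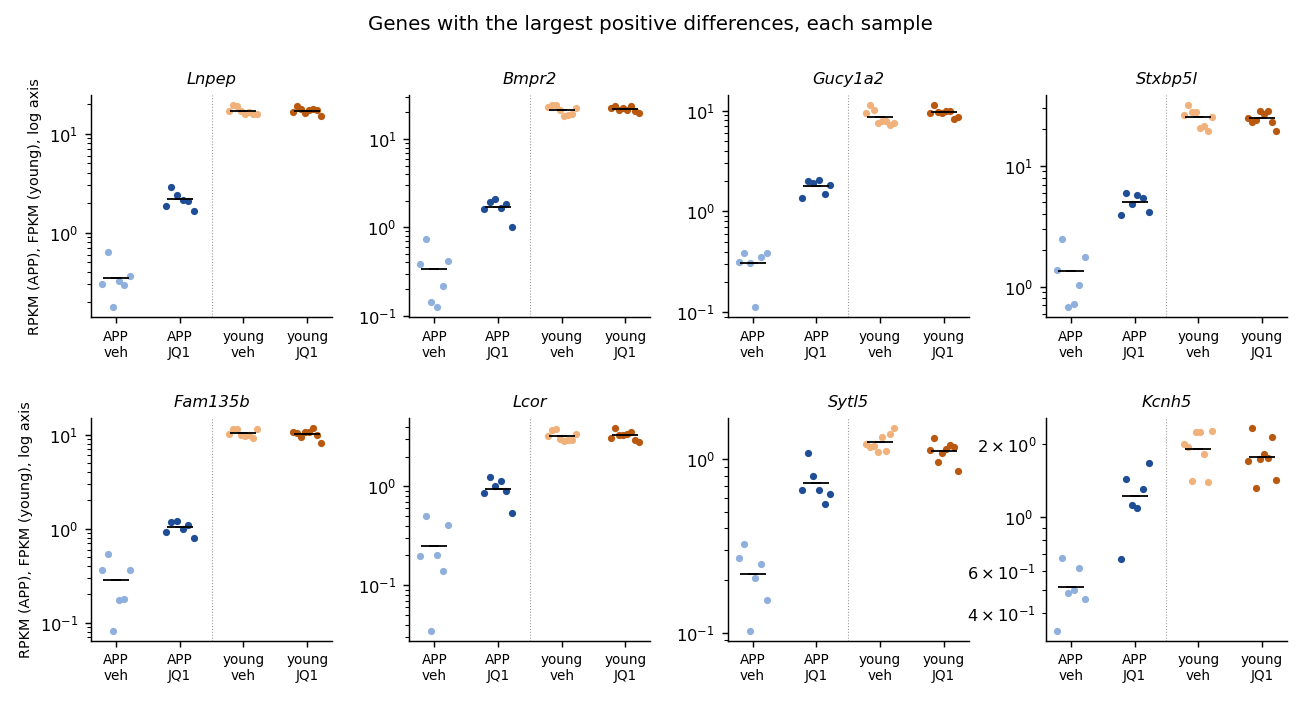
Levels of 8 genes with large positive differences, per sample on a log axis (RPKM in APP, FPKM in young animals), with a line at each group mean. In 7 of the 8 genes every APP JQ1 sample sits above every APP vehicle sample, with Kcnh5 the exception, and the young groups overlap in all 8. Gucy1a2 and Sytl5 met the filter for APP samples only through the JQ1 samples.

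These risers stood far lower in the APP files than in the young files. With 0.1 added to each level, the young vehicle mean was 38.2 times the APP vehicle mean for Lnpep, 49.1 times for Bmpr2, 21.3 times for Gucy1a2, 17.5 times for Stxbp5l and 27.5 times for Fam135b. On JQ1 the ratios were 7.58, 12.3, 5.16, 4.91 and 9.1. The ratio of APP to young vehicle levels had a median of 0.664 over all genes tested, 0.252 over the 78 higher genes and 1.02 over the 145 lower genes. It was under 0.1 in 259 of all 11478 genes, in 12 of the 78 higher and in none of the 145 lower genes. No APP vehicle sample reached the filter level of 0.5 RPKM for Gucy1a2 and Sytl5. For Lnpep, Bmpr2, Fam135b and Lcor only the highest vehicle sample did. These genes met the filter for APP samples wholly or mostly through the JQ1 samples, where they were high. RPKM from counted reads and FPKM from assembled loci are separate scales, and the part of these low levels in the result was not tested.

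Other higher genes were less extreme. Ube3a, the ubiquitin ligase lost in Angelman syndrome, was at 2.64 ± 0.378 RPKM on JQ1 and 1.23 ± 0.269 on vehicle in APP animals (mean ± SD, n = 6) and at 20.2 ± 1.53 and 19.5 ± 2.29 FPKM in young animals (n = 8). Its difference was 0.998 ± 0.145 (adjusted p = 0.000249). Gabrb1, a GABA-A receptor subunit, was at 2.26 ± 0.136 against 1.26 ± 0.354 RPKM in APP and 19.4 ± 1.89 against 19.8 ± 1.89 FPKM in young animals, a difference of 0.86 ± 0.14 (adjusted p = 0.00159). The circadian transcription factor Clock was at 5.57 ± 0.580 against 3.57 ± 0.478 RPKM in APP and 14.7 ± 1.06 against 13.9 ± 1.25 FPKM in young animals (difference 0.55 ± 0.11, adjusted p = 0.0105). Vps13a, a lipid transfer protein, and the collagen gene Col19a1 differed by 0.81 ± 0.13 and 1.04 ± 0.21 (adjusted p = 0.00111 and 0.0106). In each of these 5 genes the APP groups did not overlap. Some of the remaining higher genes (Zfp26, Gm14399, Gm14412) belong to zinc finger families with near-identical copies, whose reads could be split between them, and are uncertain.

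Among the opposite genes lower in APP, the largest difference was that of Pcsk1n (ENSMUSG00000039278, chrX:7919822-7924410, plus strand), which encodes proSAAS, a granin-like inhibitor of prohormone convertase 1. In APP animals its level was 17.3, 24.2 and 29.9 RPKM on JQ1 and 33.7, 40.1 and 65.1 on vehicle. In young animals it was 10.9, 16.4 and 19.8 FPKM on JQ1 and 8.53, 11.01 and 17.4 on vehicle. All 6 APP JQ1 samples were below all 6 APP vehicle samples, while the young JQ1 samples were shifted upwards with overlap. The APP change was -0.87 ± 0.18 (adjusted p = 0.00564), the young change 0.39 ± 0.16 (unadjusted p = 0.0209, adjusted p = 1), and the difference -1.25 ± 0.24 (adjusted p = 0.00829). The young files give 1 assembled locus for Pcsk1n that runs past the annotated end of the gene.

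Rtn4r (ENSMUSG00000043811, chr16:18127642-18152408, plus strand), the Nogo receptor that limits neurite growth, was at 24.0, 27.4 and 36.2 RPKM on JQ1 and 34.3, 37.1 and 42.0 on vehicle in APP animals. Its young levels were 16.5, 21.4 and 23.02 FPKM on JQ1 and 13.6, 16.4 and 22.3 on vehicle. Both pairs of groups overlapped by a few samples, with the medians ordered in opposite ways. The APP change was -0.40 ± 0.11, the young change 0.29 ± 0.10 (unadjusted p = 0.00449), and the difference -0.69 ± 0.15 (adjusted p = 0.014). Its homologue Rtn4rl2 (-0.84 ± 0.21, adjusted p = 0.0329) and Lingo1, a co-receptor of Rtn4r (-0.61 ± 0.14, adjusted p = 0.0256), were lower too. After the GC correction none of the 3 passed, with differences of -0.33 for Rtn4r (adjusted p = 0.242), -0.27 for Rtn4rl2 (0.662) and -0.37 for Lingo1 (0.271). Rtn4rl2 and Lingo1 were picked after their values were seen. Pcsk1n and Rtn4r, with C1qtnf4 and Apba3, were on the study's own gene lists of both experiments, so their directions are not independent evidence. C1qtnf4 had a difference of -1.07 ± 0.29 and missed the threshold (adjusted p = 0.0506), and Apba3 had no locus of a single name.

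Further opposite genes spanned several functions. Tm6sf2, which acts in lipid secretion, was at 1.79, 2.02 and 2.70 RPKM on JQ1 and 2.40, 3.36 and 4.41 on vehicle in APP animals, and at 1.01, 1.67 and 1.997 FPKM against 0.672, 1.37 and 1.65 in young animals (difference -1.06 ± 0.26, adjusted p = 0.0331). Ccdc85b differed by -0.97 ± 0.20 (adjusted p = 0.014) and the forkhead transcription factor Foxo6 by -0.89 ± 0.23 (adjusted p = 0.036). Pdlim7, a PDZ and LIM domain protein of the actin cytoskeleton, was at 11.1, 14.5 and 16.5 RPKM on JQ1 and 18.5, 20.6 and 24.7 on vehicle in APP animals, without overlap. In young animals it was at 22.2, 27.3 and 31.6 FPKM against 14.6, 22.2 and 29.5, and the difference was -0.88 ± 0.17 (adjusted p = 0.00829).

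N4bp3 differed by -0.82 ± 0.20 (adjusted p = 0.0315), with an APP change of -0.44 ± 0.15 that missed the threshold (adjusted p = 0.0684). Neurogranin (Nrgn), a calmodulin-binding protein of dendritic spines, was at 486 ± 55.5 against 625.1 ± 109 RPKM in APP and 440 ± 67.8 against 359 ± 38.7 FPKM in young animals (difference -0.64 ± 0.15, adjusted p = 0.0256). The notch ligand homologue Dlk2 differed by -0.84 ± 0.20 (adjusted p = 0.0293), and Tfeb, a transcription factor for lysosomal genes, by -0.84 ± 0.22 (adjusted p = 0.0433).

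After the GC correction Pcsk1n (-1.07, adjusted p = 0.0243) and Pdlim7 (-0.64, adjusted p = 0.0456) still passed. Tm6sf2 (-0.95, adjusted p = 0.19), Ccdc85b (-0.84, 0.0792), Foxo6 (-0.27, 0.704), N4bp3 (-0.50, 0.312), Nrgn (-0.42, 0.19), Dlk2 (-0.52, 0.272) and Tfeb (-0.42, 0.458) did not. Foxo6 passed in 15 and Tfeb in 13 of the 28 fits with 1 sample left out.

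The 3 opposite genes that were higher in APP were Atm, the DNA damage kinase (APP change 0.69, young change -0.27, difference 0.96 ± 0.18, adjusted p = 0.00829), Idh1, the cytosolic isocitrate dehydrogenase (0.28, -0.33 and 0.61 ± 0.16, adjusted p = 0.0449), and the long noncoding RNA 4632427E13Rik (1.28, -0.32 and 1.60 ± 0.26, adjusted p = 0.00153). After the GC correction 1 of these 3 genes passed, and Atm did not. No APP vehicle sample of 4632427E13Rik reached the filter level of 0.5 RPKM, so it was tested only through its JQ1 samples. Paics, an enzyme of purine synthesis, had small changes of opposite sign, at 31.4, 35.1 and 38.7 RPKM on JQ1 against 27.4, 31.1 and 32.6 on vehicle in APP animals and 55.4, 60.9 and 67.6 FPKM against 61.1, 67.4 and 71.9 in young animals (difference 0.33 ± 0.07, adjusted p = 0.0224).

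Map3k12, the dual leucine zipper kinase, was the 1 gene past the test whose young groups were separate. Its young level was 35.8, 37.3 and 38.3 FPKM on JQ1 and 32.3, 33.3 and 34.1 on vehicle. Over all genes tested, such separation was found in 0.0174% with JQ1 above and in 0.00871% with JQ1 below. In APP animals the ranges were 12.5 to 15.9 RPKM on JQ1 and 13.3 to 17.5 on vehicle, and the difference was -0.33 ± 0.08 (adjusted p = 0.0256).

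**Figure D4:**
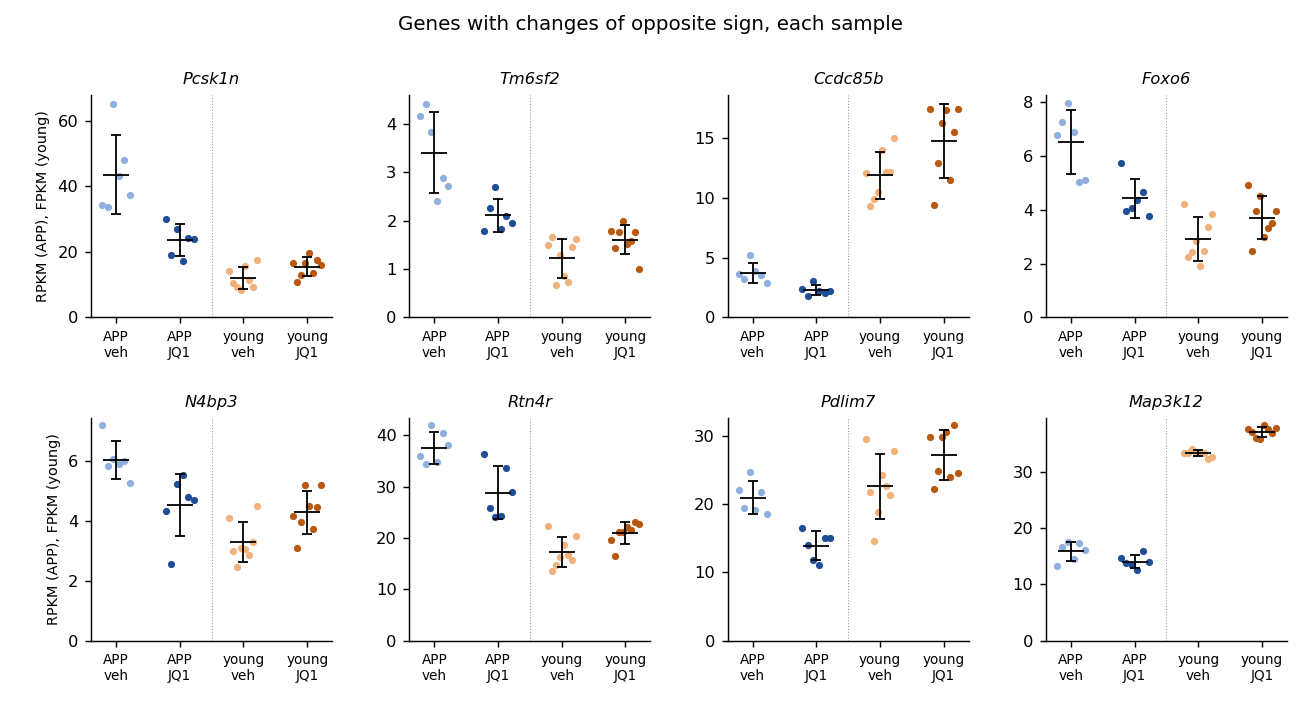
Levels of 7 opposite genes and of Map3k12, whose changes of opposite sign were not past 0.2 in both experiments, per sample from 0 on the y axis (RPKM in APP, FPKM in young animals), with mean and SD. APP JQ1 means lie below APP vehicle means and young JQ1 means above young vehicle means in all 8, and only Pcsk1n and Pdlim7 have separate APP groups and only Map3k12 separate young groups.

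Among genes lower in APP with young changes under 0.2, the signalling receptor Gpr3, which raises cAMP without a ligand, was at 0.955, 1.16 and 1.46 RPKM on JQ1 and 1.56, 1.94 and 4.31 on vehicle in APP animals, and at 1.67 to 2.82 FPKM against 1.79 to 2.29 in young animals (difference -0.95 ± 0.22, adjusted p = 0.0256). Ccm2l, an endothelial adaptor, and Ier5l, of the immediate early response family, differed by -0.91 ± 0.20 and -0.88 ± 0.20 (adjusted p = 0.0203 and 0.0227). In these 3 genes every APP JQ1 sample was below every APP vehicle sample, and none passed after the GC correction (adjusted p = 0.111, 0.203 and 0.315). The young change was above 0 in 143 of the 145 lower genes and below 0 in 49 of the 78 higher genes. Over all genes tested it was above 0 in 6304 of 11478. The genes were selected on a difference that subtracts the young change, so these counts are no evidence of an opposed young response.

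Among the targets of the drug, Brd2 had a difference of -0.00 ± 0.09 (adjusted p = 0.998) and Brd3 of -0.12 ± 0.08 (adjusted p = 0.452), neither past the threshold. Brd2 was at 25.2 to 28.7 RPKM on JQ1 and 25.3 to 29.1 on vehicle in APP animals. The difference for Brd2 turned positive, without passing, at the median-ratio scaling (0.00689) and after the GC correction (0.22). Hexim1 was at 15.7 to 21.0 RPKM on JQ1 and 17.3 to 23.5 on vehicle in APP animals, and at 13.96, 15.6 and 15.8 FPKM against 12.3, 13.9 and 15.7 in young animals. Its change was -0.14 ± 0.08 in APP and 0.14 ± 0.07 in young animals (unadjusted p = 0.0422), and the difference of -0.28 ± 0.10 did not pass (adjusted p = 0.146). Of 22 BET and P-TEFb genes tested, the elongation factor Ell was the 1 past the threshold (-0.38 ± 0.10, adjusted p = 0.0388). That share was 4.55%, beside 1.94% of all genes tested, and none of the 22 passed after the GC correction. Mouse App (-0.22 ± 0.09, adjusted p = 0.218) and Thy1 (-0.33 ± 0.18, adjusted p = 0.354) did not pass. Thy1 was at 274 RPKM in APP JQ1 replicate 4 and at 533 or more in the other APP samples, and without that replicate its difference was -0.14.

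Immediate early genes, switched on by neuronal activity, leaned towards lower values in APP. The share past the threshold was 6.90% in this list and 1.94% over all genes tested. Of 29 tested, 2 passed, both lower: Egr3 (-0.81 ± 0.19, adjusted p = 0.0256), at 3.53 ± 1.0005 against 5.29 ± 0.622 RPKM in APP and 20.6 ± 2.59 against 17.9 ± 1.56 FPKM in young animals, and Ier5l. Egr4 (-1.28 ± 0.35, adjusted p = 0.0506) and Junb (-0.98 ± 0.28, adjusted p = 0.0642) missed the threshold. The change was above 0 in 5 of 29 genes in APP and in 24 of 29 in young animals, beside 5795 and 6304 of all 11478. The median difference was -0.47, beside 0.005 over all genes tested, and -0.30 after the GC correction, with a median GC content of 55.5%. None of the 29 genes passed after that correction.

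Of 29 granin, neuropeptide and prohormone processing genes, 3 were lower (10.3%): Pcsk1n, the granin Vgf (-0.83 ± 0.22, adjusted p = 0.0449) and somatostatin, Sst (-0.47 ± 0.12, adjusted p = 0.0376). Vgf was at 21.6 ± 2.55 against 37.1 ± 13.6 RPKM in APP animals, with separate groups. Over all genes tested, 1.26% were lower. The list's median difference was -0.03, and after the GC correction Pcsk1n alone passed.

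Receptors and channels held genes of both directions. The share past the threshold was 23.1% in GABA-A subunits, 13.0% in glutamate receptor genes and 7.5% in postsynaptic genes. It was 3.64% in potassium channels and 2.04% in synaptic vesicle genes, beside 1.94% of all genes tested. Of 13 GABA-A receptor subunits, Gabra2 (0.73 ± 0.19, adjusted p = 0.036), Gabrb1 and Gabrg1 (0.67 ± 0.16, adjusted p = 0.0276) were higher, and the list's median was 0.24, or 0.04 after the GC correction. Of 23 glutamate receptor genes, the metabotropic receptor Grm3 was higher (0.76 ± 0.16, adjusted p = 0.014), and Grm4 (-0.73 ± 0.18, adjusted p = 0.0336) and the kainate receptor subunit Grik5 (-0.43 ± 0.11, adjusted p = 0.0331) were lower. Of 55 potassium channels, Kcnh5 was higher and the ATP-sensitive Kcnj11 lower (-0.56 ± 0.14, adjusted p = 0.0315). None of 36 sodium, calcium, HCN and TRP channels passed. Of 40 postsynaptic genes, Gucy1a2 was higher, and Nrgn and the scaffold Dlgap4 (-0.49 ± 0.11, adjusted p = 0.0203) lower. Stxbp5l was the 1 of 49 synaptic vesicle genes past the threshold. After the GC correction Gabrb1, Kcnh5, Gucy1a2 and Stxbp5l were the only members of these lists to pass.

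Among nuclear lists, 3 of 21 cohesin, condensin and SMC genes were higher and none lower: Smc2 (0.61 ± 0.15, adjusted p = 0.0331), the cohesin loader Nipbl (0.46 ± 0.12, adjusted p = 0.0407) and Pds5a (0.57 ± 0.15, adjusted p = 0.0438). Their list had a median GC content of 42.4% and a median difference of 0.19, or 0.06 after the GC correction. Of 85 histone and DNA modifying enzymes, Arid4b, Kdm5a, Atrx and Phip were higher and 2 were lower, among them Sirt6 (-0.68 ± 0.14, adjusted p = 0.014). Of 84 DNA repair genes, Atm was higher and Sirt6 lower. Of 83 splicing genes, Tia1 was higher (0.39 ± 0.10, adjusted p = 0.0376) and Snrnp70 lower (-0.46 ± 0.11, adjusted p = 0.0256). Of 256 Zfp genes, 4 were higher and 3 lower. The shares past the threshold were 14.3% in the cohesin list and 7.06% in the enzymes. They were 2.38% in DNA repair, 2.41% in splicing and 2.73% in Zfp genes, near the 1.94% of all genes tested. After the GC correction none of the cohesin, DNA repair, splicing and Zfp genes passed, and 1 of the 85 enzymes did.

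Of 52 ubiquitin-specific proteases and HECT ligases, Ube3a, Usp15 and Usp34 were higher. Of 31 lysosomal genes, Tfeb and the lysosomal ATPase Atp13a2 (-0.56 ± 0.11, adjusted p = 0.00829) were lower. Clock was the 1 of 20 clock genes and Hsf1, the heat shock transcription factor (-0.50 ± 0.12, adjusted p = 0.0256), the 1 of 24 heat shock genes past the threshold. None passed among 75 nuclear genes of oxidative phosphorylation, 60 ribosomal proteins, 22 genes of ER folding, 20 of cholesterol synthesis, 16 histone genes and 13 clustered protocadherins. Over all genes tested the share past the threshold was 1.94%. After the GC correction Ube3a and Clock were the only members of these lists to pass.

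**Figure D5:**
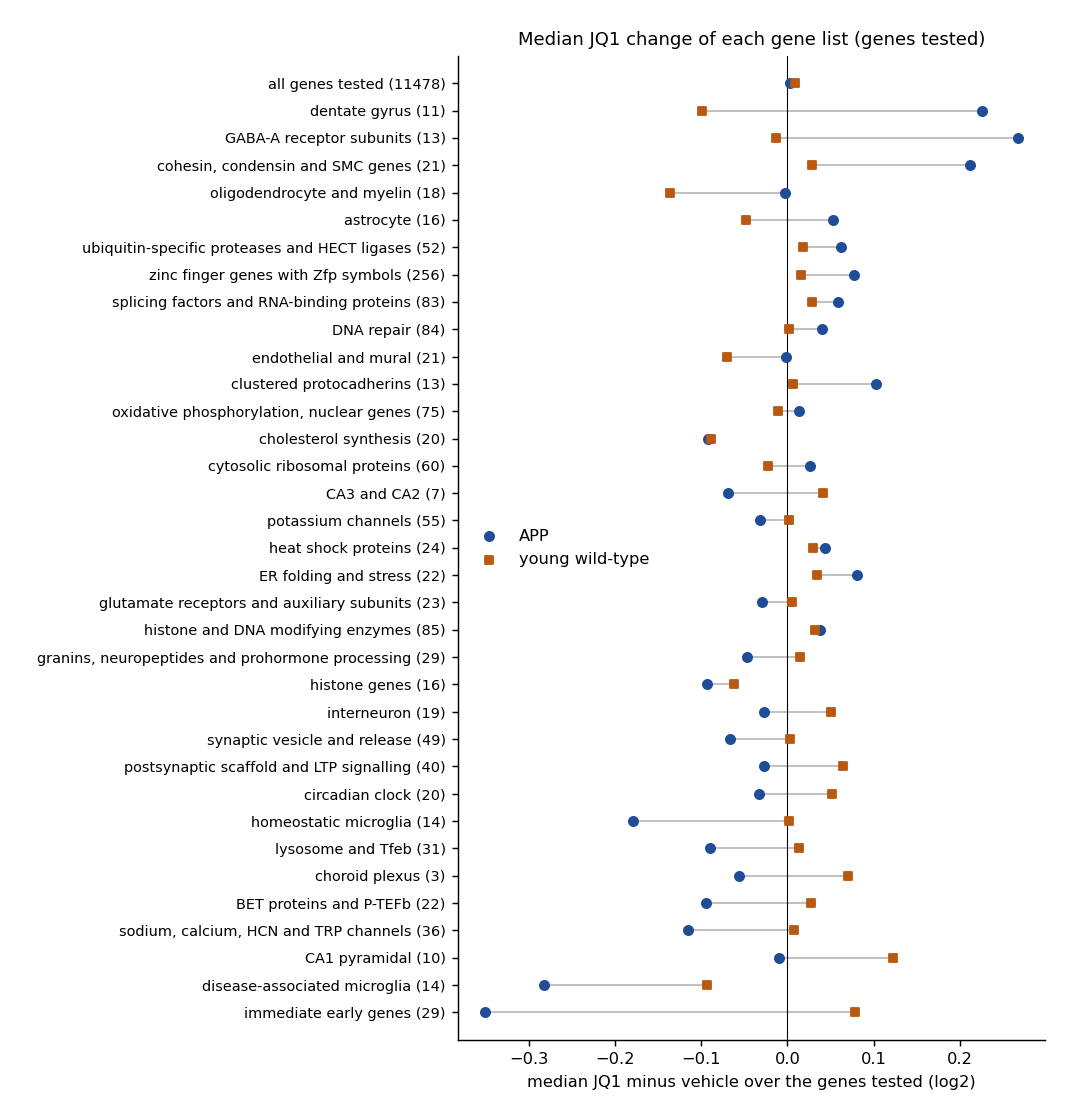
Median log2 change on JQ1 over the tested genes of each list on the x axis, with the lists and their number of genes on the y axis; circles are APP and squares young animals. The list of genes on both of the study's own lists is not plotted. Among the lists plotted, immediate early genes lie furthest apart, at -0.35 in APP and 0.08 in young animals, and the medians of all 11478 genes lie at 0.003 and 0.009.

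Markers of other cells were read beside these results. None of 18 oligodendrocyte, 16 astrocyte, 14 homeostatic microglial, 14 disease-associated microglial, 21 vascular, 10 CA1 pyramidal, 7 CA3 and CA2, 11 dentate and 3 choroid plexus markers passed the test, and of 19 interneuron markers Sst alone did. The interneuron share was 5.26%, beside 1.94% of all genes tested. Of the 18 oligodendrocyte markers, 0 had a young change above 0 (median -0.14), and 9 had an APP change above 0 (median -0.002). Dentate markers were above 0 in 10 of 11 in APP and 2 of 11 in young animals, with summed levels of 74.0 to 123.3 RPKM on JQ1 against 59.8 to 108 on vehicle in APP animals and 75.9 to 131 FPKM against 71.6 to 118 in young animals. CA1 pyramidal markers summed to 296 to 432 against 377 to 428 RPKM in APP and 351 to 528 against 338 to 411 FPKM in young animals. Homeostatic microglial markers were above 0 in 4 of 14 in APP (median -0.18) and 7 of 14 in young animals, and summed to 247 to 964 RPKM on JQ1 against 473 to 1078 on vehicle in APP animals and 208 to 263 FPKM against 218 to 251 in young animals. Disease-associated microglial markers were above 0 in 1 of 14 in APP (median -0.28) and 2 of 14 in young animals (median -0.09), and summed to 1107 to 2812 RPKM against 1562 to 3131 in APP and 1312 to 1621 FPKM against 1347 to 1654 in young animals. The median differences of these microglial lists were -0.09 and -0.22, and 0.07 and 0.0001 without APP JQ1 replicate 4. The choroid plexus marker Ttr ranged from 2.89 to 97.1 RPKM over the APP samples. The part of dissection and of microglia in the differences was not tested.

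APP JQ1 replicate 4 was left out in a repeat of the test. On the same 11478 genes, 104 then differed (45 higher, 59 lower), of which 101 were among the 223. All 78 higher and all 145 lower genes kept their sign, and 43 and 58 of them passed. Lnpep (2.37, adjusted p = 1.60e-08), Gucy1a2 (2.03, adjusted p = 1.41e-06), Bmpr2 (2.12, adjusted p = 0.000249), Pcsk1n (-1.17, adjusted p = 0.0223), Pdlim7 (-0.82, adjusted p = 0.0223) and Rtn4r (-0.64, adjusted p = 0.0333) still passed. Lmbrd2 (adjusted p = 0.0727), Tm6sf2 and Foxo6 (0.0585 each) and Map3k12 (0.0542) did not. Of the 25 opposite genes 13 passed, and of the 196 one-sided genes 87. In APP animals alone 399 genes passed. With the low-level filter applied anew to the remaining samples, 95 of 11432 genes differed, and with the GC correction in addition 10 (9 higher, 1 lower). Replicate 4 was not alone in this, since leaving out APP JQ1 replicate 3 or APP vehicle replicate 3 gave 82 each and leaving out APP JQ1 replicate 5 or young JQ1 replicate 2 gave 413 each.

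A set of 16 genes, listed after their values were seen, passed in every one of the 28 fits with 1 sample left out and also with the GC correction, with separate fits, with weights per experiment and with a replicate block. Those higher in APP were Lnpep, Bmpr2, Stxbp5l, Fam135b, Lcor, Kcnh5, Col19a1, Ube3a, Gabrb1, Vps13a, Clock and Paics. Those lower included Pcsk1n, Pdlim7 and Ubald1 (-0.62 ± 0.12, adjusted p = 0.00829). Of these 16, Pcsk1n and Pdlim7 had opposite changes past 0.2 in both experiments. The low-level filter was applied anew in each of the 28 fits. Gucy1a2 and Sytl5 passed in 22 of them and were not tested in the rest, each of which lacked an APP JQ1 sample. The set could not include them for that reason.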

How the data were processed

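Total RNA from dissected mouse CA1 was sequenced as Illumina libraries, and 28 of the 32 samples with files were used (those of aged wild-type mice were not). Per the labels and the study's methods, reads of the APP experiment were aligned to mm10 with STAR and the authors deposited HTSeq counts per gene. Reads of the young experiment were processed with TopHat, Cufflinks and Cuffdiff, and the authors deposited FPKM per assembled locus. CASAVA 1.8.2 is named in the submitters' processing notes. Strand settings are not given in the sources used here.

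Counts were scaled to CPM with TMM (edgeR 4.0.16) and divided by the GENCODE vM21 exonic length of each gene to RPKM. FPKM were used as deposited, and no count model was run on them. Genes were matched by symbol, with loci of a single name only: of 36594 symbols with 1 gene ID and 35200 single-name loci, 31030 matched. Genes at 0.5 or more in at least 6 of 12 APP and 8 of 16 young samples were kept. Values were tested as log2(value + 0.1), a scale that understates the change of low genes, with limma 3.58.1 in R 4.3.3 (trend, robust) in 1 fit of 4 groups, with Benjamini-Hochberg adjustment over all genes. The labels do not say which animals the samples came from, so p-values measure the spread between these samples. The samples shared replicate numbers that did not pair them: 2 of 6 APP and 2 of 8 young same-numbered pairs had a correlation of deviations over 0.1.

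Named genes were the 10 protein-coding genes with the largest positive and the 10 with the largest negative difference past the threshold, 6 of each response class by size, the 4 genes on both study lists, the BET genes, and checks of transgenes and sex. Some genes that this rule names are not reported here. In each gene list the members past the threshold and the extremes were read. Members and lists were chosen with earlier results of these data known. The test was checked on simulated data of 11513 genes for the difference of JQ1 responses: it recovered 23.9% of genes changed by 0.5, 76.6% by 1 and 97% by 2 on the log2 scale, with 7.9% false calls and 0 of wrong sign. Whether these rates apply to the measured samples, where the change in APP animals correlated with GC content, was not tested. Alternatives changed the scaling, filter, pseudocount, matching, weights, block, GC content and length correction (a spline with 5 degrees of freedom per sample) and left out each sample. The repeats without APP JQ1 replicate 4, with the GC correction and on the same genes, were added after the data had been seen.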

Additional observations from a re-analysis of the deposited data

Results flagged for a closer look

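The differences between the APP and young responses were themselves the test, and those of 23 genes named here passed it. The positive ones were Lnpep 2.37, Bmpr2 2.12, Gucy1a2 2.07, Stxbp5l 1.94, Fam135b 1.71, Lcor 1.69, Lmbrd2 1.60, Sytl5 1.58, Kcnh5 1.18, Ncam2 1.09 and Paics 0.33. The negative ones were Pcsk1n -1.25, Tm6sf2 -1.06, Ccdc85b -0.97, Gpr3 -0.95, Ccm2l -0.91, Foxo6 -0.89, Pdlim7 -0.88, Ier5l -0.88, Dlk2 -0.84, N4bp3 -0.82, Rtn4r -0.69 and Map3k12 -0.33. All are log2 differences of changes with adjusted p (limma) between 3.59e-09 and 0.0388.

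Single samples lay far from the others of their group in 11 of 136 groups tested, where chance alone sets about 1 in 20 apart. In APP vehicle these were Gucy1a2 in replicate 4 (0.112 RPKM) and Gpr3 in replicate 1 (4.31). In APP JQ1 it was C1qtnf4 in replicate 3 (14.5 RPKM). In young samples they were Ncam2 in vehicle replicate 3 (20.9 FPKM) and Hexim1 in JQ1 replicate 2 (13.96). Among sex-linked genes near 0, Xist was at 0.228 FPKM in young JQ1 replicate 2, Ddx3y at 0.354 RPKM in APP JQ1 replicate 3 and 0.0511 in APP vehicle replicate 4, Eif2s3y at 0.0533 in APP vehicle replicate 6, and Kdm5d at 0.00435 in APP JQ1 replicate 6. Kdm5d was lowest among young vehicle samples in replicate 1 (3.80 FPKM).

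The share of reads aligned to more than 1 place, which no comparison used, had a median of 31.6% in APP JQ1 and 28.8% in APP vehicle samples.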

How the results depend on the processing

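The count of 223 genes that differed (78 higher, 145 lower) was 26 (18 and 8) with the GC content and length correction, 10 with that correction and without APP JQ1 replicate 4, 104 without that replicate on the same genes, 134 with no filter, 143 in separate fits, 67 (35 and 32) with weights per experiment and 253 (59 and 194) at 1 or more in every sample. The samples share only a number, and with the replicate block it was 443 (103 and 340), or 19 with the block and GC correction. Same-numbered samples correlated best with their own number in 2 of 6 APP and 2 of 8 young pairs. Under the same settings the 876 APP calls became 122, 72, 399 (same genes), 65 (separate) and 111 (weights), and 127 with block and GC correction. The 196 one-sided genes became 22, 10, 89, 115 (no filter), 116, 57, 376 (block) and 16 (block and GC). The 25 opposite genes became 3, 0, 14, 8 (weights), 50 (block) and 3 (block and GC). The 2 remaining genes became 1, 0, 1, 4 (strict filter), 1 (separate), 14 (block) and 0 (block and GC), and the 0 genes one-sided towards young became 3 with the block. Lists with a gene past the threshold numbered 19, or 9, 4 and 9 with the GC correction, that without replicate 4, and block and GC. Brd2 turned from -0.0007 to 0.22, 0.19, 0.22 (block and GC) and 0.00689 (median ratios). The cause of these moves was not tested. Other scalings, pseudocounts, matching and gene types kept the counts within 1.5 times.

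With 1 sample left out, the count of differing genes ranged from 82 to 413 (higher 29 to 146, lower 47 to 306). It moved past 1.5 times without APP JQ1 replicates 1 (371), 2 (117), 3 (82), 4 (95) and 5 (413), APP vehicle replicate 3 (82), young JQ1 replicates 1 (147), 2 (413), 7 (142) and 8 (118), and young vehicle replicates 2 (114) and 3 (92). APP calls ranged from 377 to 1373, young calls stayed at 0, opposite genes ranged from 10 to 87, one-sided from 65 to 375, young-sided from 0 to 3, the rest from 1 to 11, such lists from 13 to 25, r from -0.0746 to -0.0096, and Brd2 from -0.0284 to 0.0356. Young read depth is unknown. Mean APP vehicle levels lay under 1 RPKM for Lnpep, Bmpr2, Gucy1a2, Fam135b, Lcor, Sytl5 and Kcnh5. They were 1.34 RPKM for Stxbp5l, 1.42 for Lmbrd2 and 1.40 for Ncam2. RPKM is divided by exonic length, so these levels do not give the number of reads. The part of low levels in the fold changes was not tested.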

Other observations

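Kdm4b, a histone demethylase, had a young change of 0.84 (unadjusted p = 0.000383, adjusted p = 1) and an APP change of -0.32, and its difference of -1.15 ± 0.31 missed the threshold (limma, adjusted p = 0.0511). The linker histone gene H1fx stood likewise at -0.89 ± 0.25 (adjusted p = 0.0534), with a young change of 0.41 and an APP change of -0.48. Kcna3, a voltage-gated potassium channel, rose in APP animals (1.74, adjusted p = 0.0113), had a young change of -0.01, and its difference of 1.75 ± 0.54 did not pass (adjusted p = 0.0843). The microglial gene Fcrls fell in APP animals by 1.38 on the log2 scale (adjusted p = 0.00382), with a difference of -1.20 ± 0.36 (adjusted p = 0.0721), beside a median change of -0.18 over 14 homeostatic microglial markers in APP animals. These 4 genes were picked from the extremes of their lists after their values were seen.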
